A study of Mus musculus with 24 samples.

Results

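Oligodendrocyte precursor cells (OPCs) were taken from a single-cell RNA-sequencing survey of mouse motor cortex and dorsal striatum during the learning of a forelimb reaching task. A cell was kept as an OPC when it held at least 2 UMIs of Pdgfra, at least 1 UMI of Olig1 or Olig2, at most 1 UMI of Bmp4 and Enpp6 together, and 0 UMIs of Mog, Mag and Cx3cr1. A UMI (unique molecular identifier) counts 1 captured transcript. Cells also had to hold at least 1000 UMIs and 500 genes, with at most 20% of UMIs from mitochondrial genes. The rule kept 6422 of 103715 cells that passed these limits, 4313 of 50361 in motor cortex and 2109 of 53354 in dorsal striatum. Since the cells were selected on these measured values, levels of the 8 genes of the rule, and the contrast of OPCs with other cells, are descriptions without a test.

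The motor cortex libraries came from Fos-CreER::Ai9 mice and the dorsal striatum libraries from Arc-CreER::Ai9 mice, lines in which 4-hydroxytamoxifen (4-OHT) makes recently active cells express tdTomato. All groups, the untrained controls included, received 4-OHT, and tissue was taken 3 days later. Early mice were labelled at 2 days of training and late mice at 8 days. Each of the 12 pools joined 2 mice, with 2 pools for each region and stage, and the 2 hemispheres of a pool were sequenced as separate libraries. For trained mice these were contralateral or ipsilateral to the reaching forelimb. Control replicate 1 of dorsal striatum rests on its left hemisphere, since the right one was not analysed here. Region and driver line cannot be told apart, and the p-values below measure the spread between pools. Only 2 flow cells held pools of both regions, so region also went largely with flow cell. Flow cell was not a term of the main regional model.

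OPCs arise from neural progenitors of several forebrain territories, spread through grey and white matter, and keep dividing in the adult brain. They respond to platelet-derived growth factor through the receptor Pdgfra, carry the proteoglycan NG2 (Cspg4), and receive synaptic input from neurons through glutamate and GABA receptors. A share of them leaves the cycle, passes through a committed stage marked by Bmp4, Enpp6 and Gpr17, and becomes myelinating oligodendrocytes that express Mbp, Mog and Mag.

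The selected cells carried OPC genes that the rule did not use. Matn4, which encodes the matrix protein matrilin 4, had a UMI in 81.2% of them, against 0.373% of microglia and 0.401% of neurons from the same libraries. C1ql1, which encodes a secreted C1q-like protein, had a UMI in 86.5%, against 0.328% of microglia and 0.868% of neurons. Cspg4 was found in 72.2% and Sox10, the lineage transcription factor, in 54.5%, while each was found in under 0.4% of both other classes. Later cells of the lineage held them more often. Committed precursors (described below) held Matn4 in 50.0%, C1ql1 in 75.5%, Cspg4 in 33.3% and Sox10 in 61.0%. Mature oligodendrocytes held them in 17.4%, 12.3%, 2.03% and 60.5%, in the same order. Microglia and neurons were selected to hold 0 UMIs of Pdgfra, Olig1 and Olig2, and the part of that selection in their low shares was not tested. The median depth was 2313 UMIs in OPCs, 1983 in microglia and 5943 in neurons, so neurons were the deeper cells and still held few of these transcripts. The 1623 OPCs with exactly 2 Pdgfra UMIs held Matn4 in 71.7% of cells. The 1700 cells with exactly 1 Pdgfra UMI, which met every other term and were left out, held it in 67.4%. By contrast, the 288 cells that failed only for having 0 Olig1 and Olig2 UMIs held Matn4 in 5.90%. At the other edge of the rule, 53 cells failed only for having 2 UMIs of Bmp4 and Enpp6 together, and 86.8% of those held Matn4.

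The committed precursors of the same pools (526 cells with 2 or more UMIs of Bmp4 and Enpp6 together, and 0 of Mog and Mag) show where the OPC class ends. Gpr17, a receptor that peaks in committed cells, averaged 623 CPM (counts per 1000000 UMIs of the pool's cells, scaled between pools) in OPCs and 2800 CPM in committed precursors. Fyn, a kinase of myelin initiation, averaged 283 CPM in OPCs and 3205 CPM in committed precursors. Cspg4 went the other way, at 571 CPM in OPCs and 170 CPM in committed precursors. Among the 14 OPC markers listed, Tnr (1153 and 2022 CPM), Neu4 (412 and 744 CPM) and Sox10 (314 and 345 CPM) were higher in committed precursors. The others, Cspg4 among them, were lower there. The OPC class therefore contained cells with a Gpr17 UMI (73.4% of them), and 97.0% of committed precursors had one.

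Depth differed between pools. A pool held 152 to 1076 OPCs with a median of 1306 to 3467 UMIs per cell, and the OPC sum of a pool held 278766 to 3007635 UMIs. The 3 smallest sums were those of dorsal striatum late replicate 1 (169 OPCs), motor cortex control replicate 1 (152) and dorsal striatum control replicate 1 (255). By the barcodes that libraries share, replicate 1 of control and late in both regions used another barcode set than the other 8 pools. The hemisphere and microglia models used pool as a block, and the other gene tests had this barcode class as a term. Matn4 varied with it: the 4 pools of the smaller class held 327 to 670 CPM and the other 8 held 770 to 1065 CPM. Of the 6418 OPC barcodes, 4 occurred as OPCs in more than 1 library and 0 in both libraries of a pool.

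OPCs made up a larger part of the cortical than of the striatal cells in most pools. In motor cortex the share of passing cells was 3.08% and 8.93% in the control pools, 10.8% and 10.6% in the early pools, and 7.73% and 8.91% in the late pools. In dorsal striatum it was 4.15% and 3.58% in control, 3.57% and 5.07% in early, and 1.45% and 6.58% in late pools. The lowest cortical pool lay inside the striatal range, and the other 5 lay above it. The means were 8.33% ± 2.82 and 4.06% ± 1.71 (SD, n = 6 pools each). Their difference of 4.27 percentage points had a two-sided exact permutation p of 0.0152, which became 0.0682 after Benjamini-Hochberg adjustment over the 9 share comparisons. These are shares of captured cells, and dissociation, dead-cell removal and the activity reporter all lie between them and the tissue; their part was not tested.

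**Figure D1:**
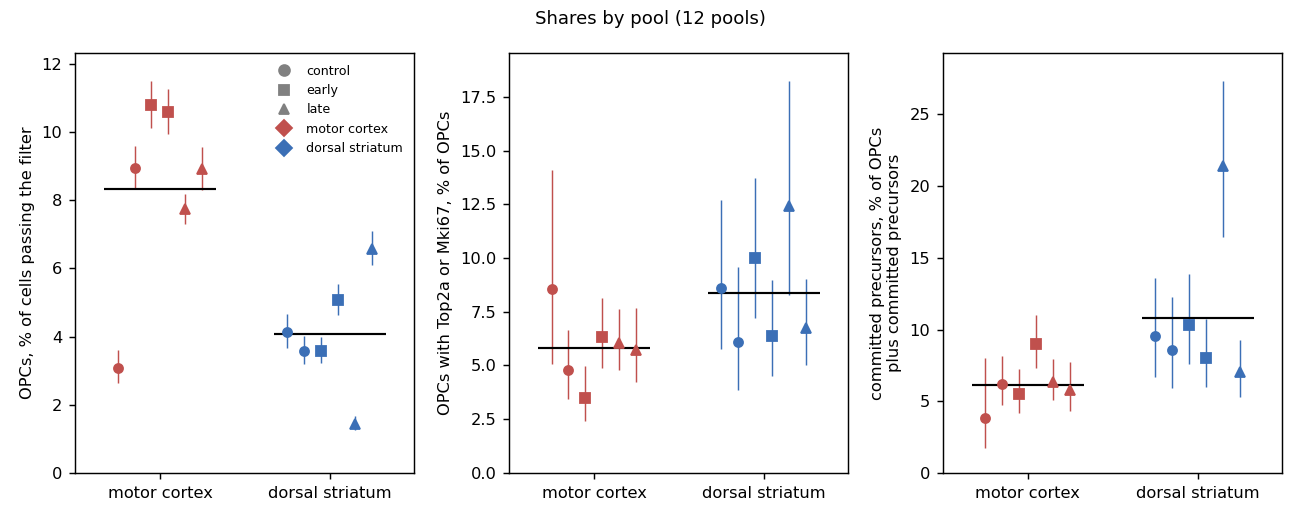
Share of OPCs among passing cells, share of OPCs with a Top2a or Mki67 UMI, and share of committed precursors among OPCs and committed precursors, in percent, for each of the 12 pools by region and stage. Each point is a pool with its 95% Wilson interval, which covers counting error only, and the black line is the mean of 6 pools. Cortical pools lie between 3.08% and 10.8% for the first share, and dorsal striatum late replicate 1 stands at 21.4% for the third.

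Training did not move the OPC share beyond the spread between pools. The 8 trained pools averaged 6.83% and the 4 control pools 4.93%, a difference of 1.90 percentage points (exact permutation within region, two-sided p = 0.213, adjusted p = 0.480). Motor cortex control replicate 1 carries much of that difference, which fell to 0.436 percentage points without it and rose to 3.36 without motor cortex control replicate 2. Between the hemispheres of 8 trained pools, the contralateral share averaged 6.94% ± 3.62 and the ipsilateral share 6.80% ± 3.39 (SD, n = 8). It was higher on the contralateral side in 4 of 8 pools (paired exact permutation, two-sided p = 0.875, adjusted p = 0.933).

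OPCs called dividing here were counted by Top2a, the topoisomerase of chromosome segregation, and Mki67, the proliferation antigen Ki-67. At least 1 UMI of either was present in 235 of 4313 cortical OPCs, or 5.45% (95% Wilson interval 4.81 to 6.17), and in 164 of 2109 striatal OPCs, or 7.78% (6.71 to 9.0). Such intervals cover counting error only. Microglia of the same libraries gave 0.420% in cortex and 1.53% in striatum at similar depth, and deeper neurons gave 1.79% and 2.44%. Astrocytes gave 0.405% in cortex and 3.59% in striatum (123 of 3430 cells), the highest of these classes, at a median of 2292 UMIs against 2518 in striatal OPCs. Cells were put in that class by Aqp4 and Gja1, and it was mixed: 4 ependymal markers summed to 976 to 3881 CPM in its striatal and 20.9 to 65.6 CPM in its cortical pools, and 5 endothelial markers to 119 to 641 and 276 to 3688 CPM. In the same order, 8 neuroblast and neural progenitor markers summed to 453 to 1135 and 94.55 to 170.5 CPM. Free RNA and doublets can give such shares. With every cell thinned to 1000 UMIs after the classes were set, the OPC shares were 4.41% and 5.55%, against 0.271% and 0.862% in microglia and 0.203% and 2.07% in astrocytes. The OPC share thus lay above those of microglia and astrocytes in both regions, with and without thinning.

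By pool, the dividing share of OPCs was 8.55% and 4.80% in cortical control, 3.47% and 6.33% in early, and 6.04% and 5.71% in late pools. In striatum it was 8.63% and 6.12% in control, 10.0% and 6.38% in early, and 12.4% and 6.76% in late pools. The ranges overlapped. The means of 5.82% ± 1.70 and 8.38% ± 2.48 (SD, n = 6 each) differed by 2.57 percentage points (exact permutation, two-sided p = 0.0498, adjusted p = 0.149). Marked doublets moved with the region. Scrublet, which scores cells against simulated doublets, marked 52 of the 164 dividing striatal OPCs (31.7%) but 3 of the 235 dividing cortical OPCs (1.28%). Among OPCs without either gene it marked 6.38% in striatum and 4.44% in cortex. Of the 52 marked striatal cells, 13 (25.0%) held a UMI of Dlx1 or Dlx2, factors of ventral forebrain progenitors and interneurons, against 1 of the 112 unmarked ones (0.893%). The marked cells were deeper, with a median of 5614 against 3018 UMIs, and the part of depth in these shares was not tested. They also held more Top2a and Mki67, a median of 8 against 2 UMIs, and Matn4 was found in 75% of both sets. With marked cells removed the regional difference was 0.651 percentage points (p = 0.703 by the same exact test), again lower in cortex, and with cells thinned it was 0.975 (p = 0.377).

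Trained and control pools had nearly the same mean dividing share, 7.14% and 7.02%, with a two-sided exact permutation p of 0.933 (adjusted p = 0.933). Barcode class was not a term of the share tests, and the smaller class held replicate 1 of control and of late but no early pool. Its 4 pools ran from 6.04% to 12.4% and the other 8 from 3.47% to 10.0%. On the contralateral side the share was 6.87% ± 3.02 and on the ipsilateral side 7.46% ± 3.69 (SD, n = 8), and it was higher contralaterally in 4 of 8 pools. The exact test gave p = 0.664 (adjusted p = 0.854).

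The dividing OPCs carried the rest of the mitotic programme. Because Top2a and Mki67 chose them, their profile is given as a description. All 20 genes of the G2 and M phase list were higher in dividing than in other OPCs in at least 10 of 12 pools, and the list's summed level was 8143 ± 1988 CPM against 125 ± 103 (SD, n = 12). Ube2c, which drives exit from mitosis, averaged 970 against 3.97 CPM, and Cdk1, the mitotic kinase, 450 against 2.92 CPM. Of 19 S-phase genes above 10 CPM, 18 were higher in at least 10 pools. Pclaf, a partner of the replication clamp, averaged 317 against 5.15 CPM, and Rrm2, which makes deoxynucleotides, 155 against 2.85 CPM. Inhibitors of the cycle kinases were also higher in 12 of 12 pools: Cdkn2c averaged 498 against 11.7 CPM, Cdkn2d 383 against 74.8 CPM and Cdkn1a 163 against 40.2 CPM. Cdkn2a was higher in 9 of 12 pools (13.3 against 0.647 CPM), Cdkn1b in 5 of 12 (75.9 against 71.8 CPM), and Cdkn1c was lower in 11 of 12 (20.9 against 55.7 CPM).

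Many other genes lay lower in the dividing OPCs, among them genes of matrix, synaptic input and maturation. Over all 10701 genes above 10 CPM other than Top2a and Mki67, 1733 (16.2%) were lower and 1260 (11.8%) higher in at least 10 of 12 pools. Of 12 matrix and proteoglycan genes above 10 CPM, 10 were lower in at least 10 of 12 pools, and their sum was lower in 12 of 12 (10360 ± 2625 against 13550 ± 2516 CPM). Of 27 glutamate and GABA receptor genes, 10 were lower and 0 higher by the same count. Of 12 differentiation genes 7 were lower and 1 higher. The summed levels of growth factor genes, ion channels, modulatory receptors and immediate early genes were lower in 12 of 12 pools as well. Neuron transcripts moved with these lists: of 7 general neuron markers 6 were lower by the same count, and they summed to 2101 ± 1045 against 4046 ± 1238 CPM. Snap25, a synaptic vesicle fusion protein, averaged 236 against 503 CPM. Marker sums of other cells were lower too. Microglial markers summed to 98.5 against 181 CPM and astrocyte markers to 718 against 917 CPM, each lower in 11 of 12 pools. Those of endothelial cells, of pericytes and smooth muscle, and of glutamatergic neurons were lower in 10 pools, and those of spiny projection neurons in 9. The part of RNA from neurons and other cells in the lower levels was not tested. C1ql1 averaged 415 against 1197 CPM, Gpr17 405 against 647 CPM, and Neu4, a sialidase of the lineage, 240 against 430 CPM, and each was lower in every pool. Pdgfra did not share this order (1633 ± 342 against 1612 ± 152 CPM, higher in 6 of 12 pools), and Sox11, a factor of immature neural cells, was higher in all 12 (402 against 150 CPM). Sox11 is also a neuroblast marker, and the neuroblast and neural progenitor markers, Sox11 included, summed to 607 ± 319 against 352 ± 44.9 CPM, higher in 12 of 12 pools. Of the 5 such markers above 10 CPM, Sox11 was the 1 that was higher in at least 10 of 12 pools, and 1 was lower. This profile includes the 52 striatal and 3 cortical dividing OPCs marked as doublets, whose part was not tested. Dividing cells were deeper than other OPCs in every pool, for example 3234 against 2641 median UMIs in motor cortex control replicate 2. Cycle genes take a part of the counts, with the S-phase and the G2 and M lists at 2124 and 8143 CPM in dividing OPCs. The part of this in the lower levels was not tested.

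**Figure D2:**
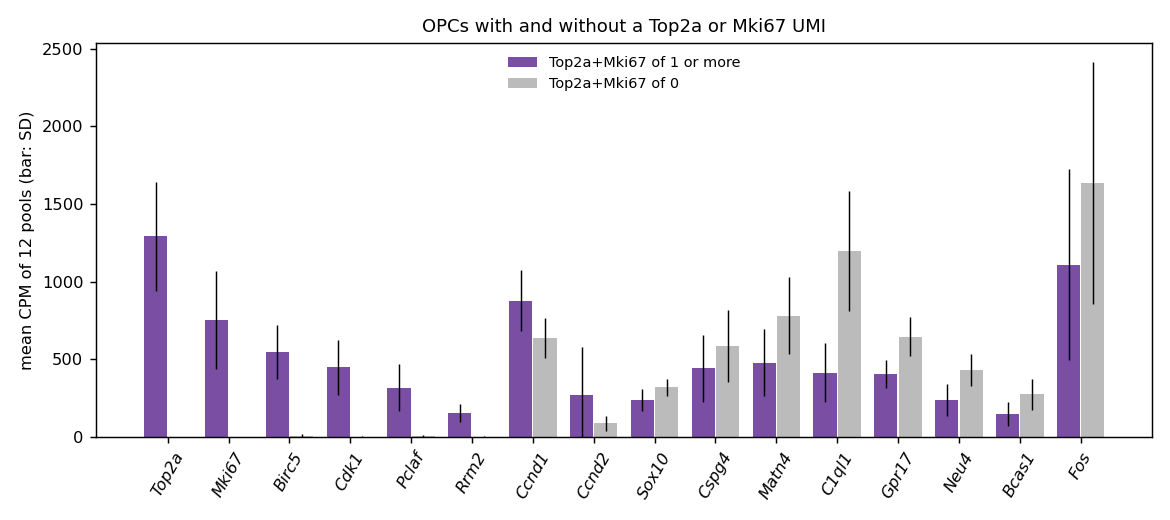
Mean level in CPM over the 12 pools of 16 genes in OPCs with (purple) and without (grey) a Top2a or Mki67 UMI, with vertical lines for 1 SD. Cell cycle genes such as Cdk1 stand high in dividing OPCs (450 against 2.92 CPM) and are barely visible in the others, and C1ql1, Gpr17 and Neu4 are lower in dividing OPCs.

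The step to committed precursors was measured as their share among OPCs and committed precursors together. It was 3.80% and 6.23% in cortical control, 5.50% and 9.01% in early, and 6.35% and 5.79% in late pools. In striatum it was 9.57% and 8.55% in control, 10.3% and 8.02% in early, and 21.4% and 7.04% in late pools. The highest cortical pool lay within the striatal range, and 1 striatal pool stood far above all others. The means were 6.11% ± 1.69 and 10.8% ± 5.31 (SD, n = 6), with a difference of 4.71 percentage points (exact permutation, two-sided p = 0.0130, adjusted p = 0.0682). Without dorsal striatum late replicate 1 the difference was 2.59 percentage points, and over the 8 pools of the larger barcode class 1.86, in the same direction. With cells thinned to 1000 UMIs and both classes set again, it was 6.78 percentage points and the adjusted p was 0.0390. Trained pools averaged 9.18% and controls 7.04% (p = 0.480 by exact permutation, adjusted p = 0.720). Contralateral and ipsilateral hemispheres averaged 7.72% ± 2.19 and 10.8% ± 9.46 (SD, n = 8 pairs, exact p = 0.414, adjusted p = 0.720). Dorsal striatum late replicate 1 carried most of both: without it the trained pools were higher by 0.525 percentage points, and the contralateral side differed by −0.276. Within that pool the ipsilateral library stood apart, with 34 committed precursors of 101 cells (33.7%), against 12 of 114 (10.5%) in the contralateral library.

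Gene levels were then compared between regions on UMIs summed over the OPCs of each pool, with stage and barcode class in the model (edgeR's quasi-likelihood test, with Benjamini-Hochberg adjustment over all genes tested). A gene is called changed at an adjusted p under 0.05, and a positive log2 change means higher in motor cortex. Of 12525 genes tested, 308 or 2.46% were called, 159 higher in cortex and 149 higher in striatum, and the median log2 change of all genes was 0.01. Among the 308, 134 had no overlap between the 6 pools of each region.

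In the region where the gene was higher, 213 of the 308 (69.2%) stood at or below their level in neurons of the same libraries, and 95 stood above it. Of all 12525 genes tested, 4942 (39.5%) stood at or below neurons by the same measure. Of 5 glutamatergic neuron markers tested, 4 were higher in cortical OPCs (median log2 change 4.90). Of 10 markers of spiny projection neurons, the main striatal neurons, 9 were higher in striatal OPCs (median −3.37), and of 7 neuroblast markers 5 were (median −2.23). Of 4 ependymal markers 3 were higher in striatal OPCs (median −4.61), as were 2 of 5 astrocyte markers (median −0.24). The spiny projection markers summed to 576 to 930 CPM in cortical and 1006 to 2393 CPM in striatal OPCs, and 1.60% of OPCs held 10 or more UMIs of them. Microglial markers gave 0 calls of 6 (median 0.72), and Mog, Mag and Cx3cr1 were at 0 by the rule. With marked doublets removed, 75 of the 308 were called again (41 higher in cortex, 34 in striatum), 85 genes in all of 11982, and 69 of the 308 were no longer tested. The part of free RNA in the remaining calls was not tested gene by gene.

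Both conditions, a level above neurons and a call without marked doublets, held for 31 of the 308, 14 higher in cortex and 17 in striatum. None of the 31 was called in the later comparison with microglia (for example Sparc, adjusted p = 0.1625, edgeR). Several, such as Pnlip at 0.12 CPM, were near the floor in microglia, where that comparison can say little. Among those 31 are Dmrta2, Pnlip, Ltbp1, Plppr5, Adamts9, Dio2, Nr4a2, Nkx6-2, Gpnmb, Emp1, Aldh1a1, Sparc, Car8, Ptgfrn, Fos and Klf2, which were chosen after their values were seen. Klf6 and the called genes named below for the gene lists and for the comparison with microglia met at most 1 of the conditions. Transcripts known from other cells also met both: the globins Hba-a1, Hba-a2 and Hbb-bs, the choline transporter gene Slc5a7, and the neuroblast marker Cd24a, at 26.1 CPM in striatal OPCs and 345 CPM in striatal astrocytes. A level above neurons does not mean a level above the other classes, and for these 16 genes astrocyte and microglial levels are given where they are above that of OPCs.

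Dmrta2 (chr4:109978053-109983687 in GRCm38), a transcription factor of the dorsal forebrain, was higher in cortical OPCs. Its level ran from 26.3 to 37.4 CPM with a median of 28.9 in cortical pools, and from 6.81 to 14.1 CPM with a median of 12.0 in striatal pools. No cortical pool overlapped a striatal one, and the log2 change was 1.35 ± 0.18 (SE, adjusted p = 8.04e-05, edgeR). Neurons held 1.33 CPM and microglia 1.26 CPM of it, while astrocytes of cortex held 44.5 CPM. Dmrta2 was called under all 22 alternative settings.

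Pnlip (chr19:58652498-58681788), which encodes a triglyceride lipase known from the pancreas, ran from 86.8 to 196 CPM with a median of 100.1 in cortical OPCs. In striatal OPCs it ran from 43.0 to 60.4 CPM with a median of 50.8, again without overlap. The log2 change was 1.08 ± 0.13 (SE, adjusted p = 2.22e-05, edgeR). Neurons, microglia and astrocytes of cortex held 0.124, 0.121 and 0.158 CPM of it, and committed precursors of cortex held 13.0 CPM. Ltbp1, a matrix protein that binds latent TGF-beta, was also higher in cortex (104 ± 25.6 against 65.4 ± 16.2 CPM, log2 change 0.63, adjusted p = 0.00471). So was Plppr5, a membrane protein of the phospholipid phosphatase-related family (373 ± 97.4 against 250 ± 37.7 CPM, log2 change 0.53, adjusted p = 0.0106). Adamts9, a matrix protease, averaged 15.6 ± 4.14 against 4.83 ± 3.82 CPM, and Dio2, which activates thyroid hormone, 25.1 ± 4.88 against 8.31 ± 4.72 CPM. Cortical astrocytes held more of both than OPCs, at 32.99 CPM of Adamts9 and 488 CPM of Dio2.

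Nkx6-2 (chr7:139579376-139582797), a homeodomain factor of oligodendrocytes, was higher in striatal OPCs. It was at 0 to 0.675 CPM in cortical pools and at 4.30 to 23.8 CPM in striatal pools, with no overlap (adjusted p = 9.71e-06, edgeR). Mature oligodendrocytes of striatum held 299.6 CPM of Nkx6-2, committed precursors 29.4 CPM and astrocytes 11.2 CPM, against a mean of 11.0 CPM in striatal OPCs. The 9 markers of mature oligodendrocytes summed to 247 to 503 CPM in cortical and 320 to 702 CPM in striatal OPCs, and their part in this change was not tested. Over 14 differentiation genes tested, 2 were called, Nkx6-2 among them and both higher in striatum, the median log2 change was 0.14, and 10 were on the cortical side. Gpr17 averaged 658 ± 86.3 against 588 ± 138 CPM and was not called (log2 change 0.12 ± 0.14, adjusted p = 0.816).

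Gpnmb (chr6:49036546-49070929), a transmembrane glycoprotein, ran from 2.63 to 24.3 CPM with a median of 9.09 in cortex and from 23.8 to 37.5 CPM with a median of 30.1 in striatum. The pools overlapped by a narrow margin, and the log2 change was −1.50 ± 0.25 (SE, adjusted p = 9.87e-04, edgeR). Emp1 (chr6:135362545-135383173), an epithelial membrane protein, averaged 11.0 ± 5.10 against 26.7 ± 10.4 CPM (log2 change −1.45, adjusted p = 0.00212). Both were called under all 22 alternative settings. Striatal astrocytes held 141.5 CPM of Emp1, above OPCs, and 1.51 CPM of Gpnmb. Aldh1a1, which makes retinoic acid, averaged 25.6 ± 7.68 against 43.1 ± 12.7 CPM (log2 change −0.88, adjusted p = 0.00516). Sparc, a matrix glycoprotein, averaged 41.1 ± 10.4 against 68.1 ± 18.5 CPM (log2 change −0.80, adjusted p = 8.37e-04). Striatal microglia held 2897 CPM of Sparc and striatal astrocytes 574 CPM, far above OPCs. Car8 (log2 change −0.62) and Ptgfrn (−0.69), a partner of tetraspanins, were higher in striatum as well. With stricter cell limits the calls of Sparc, Aldh1a1 and Car8 were lost (adjusted p = 0.0725, 0.0546 and 0.333).

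**Figure D3:**
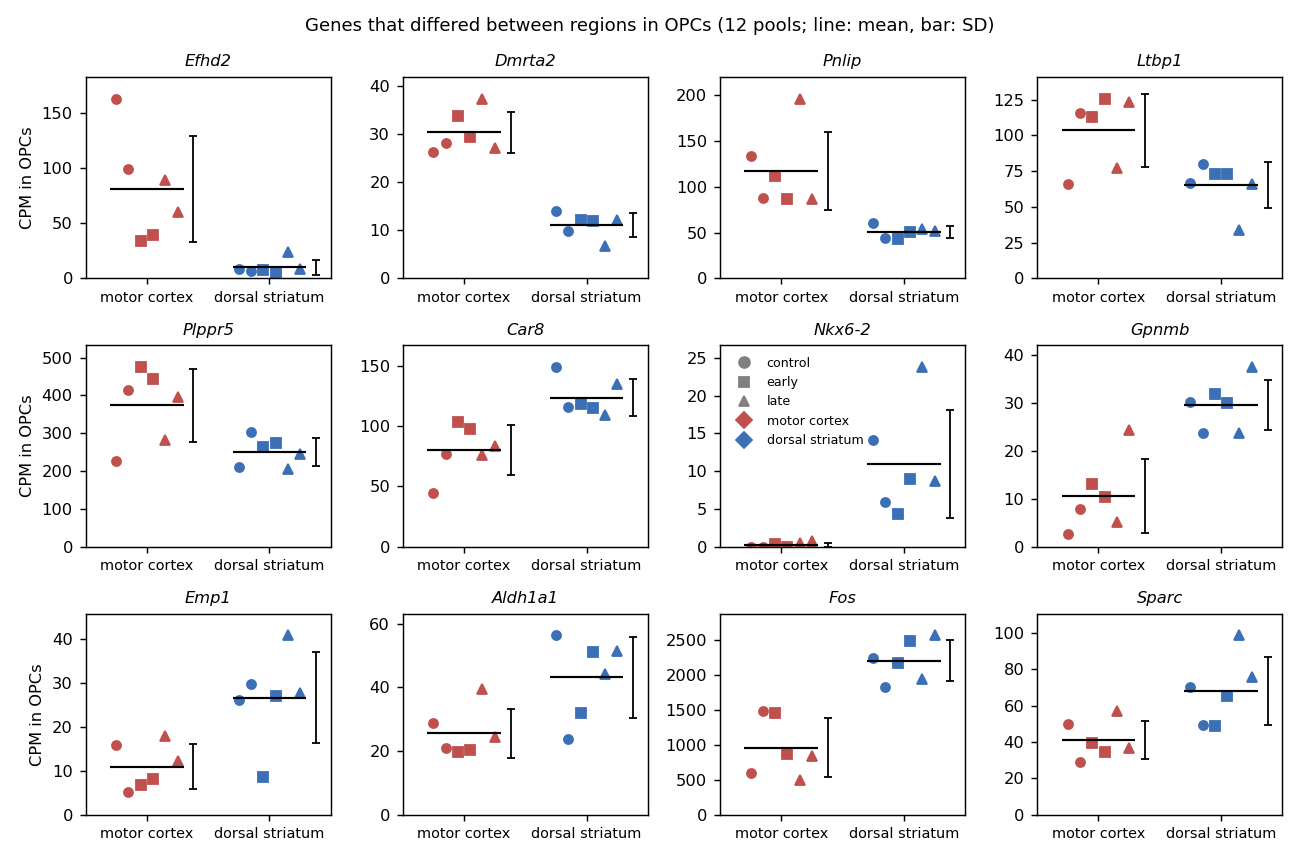
Level in CPM of 12 genes in the OPCs of each pool, motor cortex beside dorsal striatum, with stages distinguished. Each point is a pool, the horizontal line is the mean of 6 pools and the bar beside it 1 SD. Efhd2, Dmrta2 and Pnlip have no overlap between regions, with cortical pools higher, and Car8, Nkx6-2 and Fos have none with striatal pools higher.

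Fos (chr12:85473890-85477273), an immediate early transcription factor, was higher in striatal OPCs. It ran from 494 to 1483 CPM with a median of 857 in cortical OPCs, and from 1824 to 2572 CPM with a median of 2206 in striatal OPCs. A Fos UMI was present in 68.9% of cortical and 91.5% of striatal OPCs, and no pools overlapped. The log2 change was −1.34 ± 0.19 (SE, adjusted p = 1.25e-04, edgeR). The change in OPCs did not differ beyond error from that in microglia (log2 −0.25, adjusted p = 0.821), and striatal astrocytes held 4618 CPM. Fos is also the locus that drives CreER in the cortical line, and papain dissociation preceded capture; their part was not tested. Of the 22 immediate early genes, 4 were called: Fos, Klf2 and Klf6 were higher in striatum and Nr4a2 higher in cortex (76.9 ± 8.18 against 33.6 ± 13.7 CPM, log2 change 1.10, adjusted p = 0.00174). The call of Klf2 held in 6 and that of Klf6 in 13 of 22 alternative settings, against 22 for Fos and 21 for Nr4a2. Astrocytes held 680 CPM of Klf2 in striatum, against 127 CPM in OPCs, and 227 CPM of Nr4a2 in cortex. The list's median was −0.10.

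**Figure D4:**
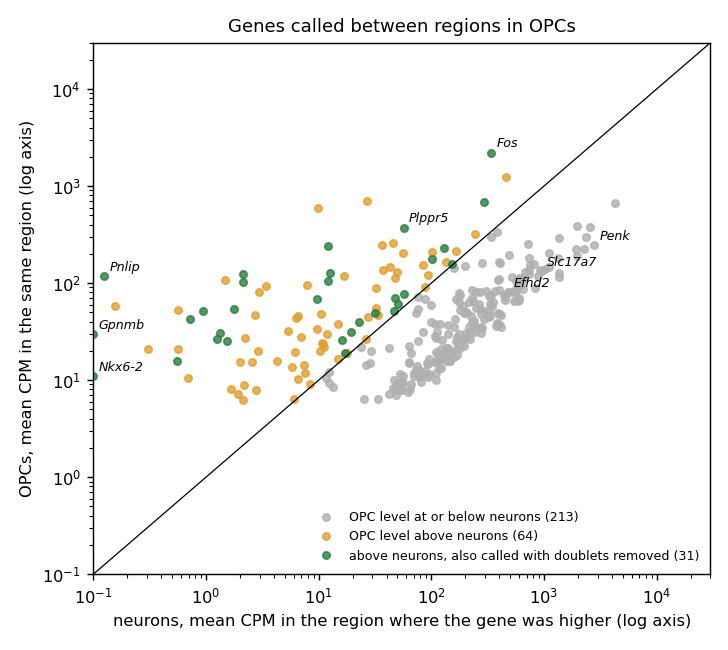
Level in OPCs against level in neurons, both in CPM on log axes and in the region where the gene is higher, for the 308 called genes; values below 0.1 are drawn at 0.1. Of these, 213 lie at or below the diagonal, 64 lie above it without a call once marked doublets are removed, and 31 lie above it with one.

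Among the gene lists of OPC function, 0 of 8 growth factor receptors and ligands, 12 matrix and proteoglycan genes and 19 ion channels tested were called. With 2.46% of all genes called, 0 in lists of this size is near the background. The median log2 changes were 0.04, 0.11 and 0.12, and 5, 11 and 14 of the genes lay on the cortical side, against 6531 of all 12525. Matn4 averaged 772 ± 280 in cortex and 732 ± 223 CPM in striatum (log2 change −0.01 ± 0.15, SE), C1ql1 1175 ± 299 and 1060 ± 421 CPM (0.16 ± 0.15), and Cspg4 584 ± 245 and 559 ± 232 CPM (0.01 ± 0.13). Vcan, a large proteoglycan (0.00 ± 0.13), and Sox10 (0.07 ± 0.14) lay as near to 0. Of 28 glutamate and GABA receptor genes, 1 was called, which lost its call without marked doublets, and the list's median log2 change was 0.05.

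Transcription factors of the lineage showed 6 calls of 23, with a median of −0.02. Id2, an inhibitor of basic helix-loop-helix factors, averaged 335 ± 81.2 in cortical and 199 ± 63.8 CPM in striatal OPCs (log2 change 0.74, adjusted p = 0.00304). Hes1, a Notch target, averaged 119 ± 18.0 and 83.7 ± 15.2 CPM (0.46, adjusted p = 0.0462), a call that held in 4 of 22 alternative settings and was lost without marked doublets (adjusted p = 0.0875). Cortical astrocytes held 336 CPM of Hes1. Sox9, Sox11, Id3 and Id4 were higher in striatum, with log2 changes of −1.21, −0.57, −0.76 and −1.25. None of these 4 was called without marked doublets (adjusted p = 0.840, 0.729, 0.208 and 0.759), and striatal astrocytes held 848 CPM of Sox9, 1404 CPM of Id3 and 1181 CPM of Id4.

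Regional patterning factors gave 7 calls of 17, with a median of −0.30. Emx1, a pallial factor, was at 1.35 to 14.3 CPM in cortical and 0 CPM in all 6 striatal pools (adjusted p = 0.00163). Six3, a factor of ventral progenitors and striatal neurons, was at 0 to 0.337 CPM in cortical OPCs, with a median of 0, and at 52.4 to 78.5 CPM in striatal OPCs, with a median of 62.7 (adjusted p = 5.79e-13). Striatal neurons held 217 CPM, striatal astrocytes 123 CPM and striatal microglia 27.7 CPM of Six3. Dlx1, Dlx2, Dlx5 and Dlx6, of ventral progenitors and interneurons, averaged 7.20 to 11.5 CPM in striatal and 0.589 to 1.89 CPM in cortical OPCs. Nr2f2 was called as well (9.13 ± 9.81 against 15.2 ± 4.90 CPM). Without marked doublets Six3 was called again, Nr2f2 lost its call (adjusted p = 0.0710), and Emx1 and the 4 Dlx genes were no longer tested. There 12 of the list were tested, with a median of 0.23. Among 16 modulatory receptors, Adra1b and Chrm3 were higher in cortex and the striatal neuron receptors Drd1, Drd2 and Adora2a higher in striatum. Cortical neurons held more of Adra1b and Chrm3 too, at 69.8 and 62.1 CPM against 11.1 and 7.51 CPM in OPCs. The call of Adra1b held in 12 of 22 alternative settings. The median of the 16 was 0.11.

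All 18 S-phase genes and all 20 G2 and M genes tested lay on the striatal side, with medians of −0.53 and −0.58. Of these, Mcm7, Pclaf, Dut, Birc5 and Hmgb2 were called, Mcm7 at 17.0 ± 2.78 against 29.8 ± 8.33 CPM. Ccnd2, a G1 cyclin, was called in the same direction (70.3 ± 40.4 against 151 ± 66.0 CPM). Removing marked doublets left medians of −0.21 and −0.01 and 0 calls in both lists. Without motor cortex early replicate 2, 4 S-phase and 9 G2 and M genes were called. The call held in 6 of 22 alternative settings for Dut, 7 for Birc5, 13 for Mcm7 and for Pclaf, 16 for Hmgb2 and 20 for Ccnd2. Thus the regional order of cycle genes moved with the marked doublets as the dividing share did. In 13 heat shock and dissociation genes 0 were called (median −0.16).

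A second model asked where the regional change in OPCs differed from that in microglia of the same libraries, which shared their free RNA. Of 14499 genes tested, 171 or 1.18% were called (79 more cortical in OPCs than in microglia, 92 less), and 9 of the 308 regional genes were called in the same direction. Another 28 of the 308 were called in the opposite direction, their regional change being the larger in microglia, among them Tac1 and Rgs9 of spiny projection neurons, Sox11 (2.80) and Pclaf (4.42). Of the 9, 5 had no overlap between regions: Efhd2, Ighm, Cd34, Tmod1 and Klk8, each higher in cortex. Efhd2 (chr4:141858142-141874920), a calcium-binding protein, ran from 33.7 to 163 CPM with a median of 74.8 in cortical OPCs and from 4.49 to 23.8 CPM with a median of 7.90 in striatal OPCs. Its log2 change was 2.96 ± 0.23 (SE, adjusted p = 3.48e-08), and it exceeded that of microglia by 2.86 (adjusted p = 0.00171). Cortical neurons and microglia held more Efhd2 than OPCs, at 484 and 772 CPM. For a gene so high in microglia, free RNA can move the microglial level little, so this comparison says little of it. The part of free RNA in the Efhd2 change was not tested. Tmod1, which caps actin filaments, averaged 53.9 CPM in cortex and 32.1 CPM in striatum (log2 change 0.65, adjusted p = 0.0202). Ighm and Cd34 averaged 14.6 and 11.8 CPM in cortical OPCs, below neurons (93.7 and 70.5 CPM), and neither was tested once marked doublets were removed. Klk8 averaged 8.16 against 1.76 CPM. The regional call held in 22 of 22 alternative settings for Efhd2, in 13 for Tmod1 and in 7 for Klk8.

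The same model called Vcan and the channel genes Cacng4 and Kcnk2 (log2 differences positive), and Sema5a, Sox5, Grik1 and Gabbr2 (negative), none of which was called for region in OPCs alone. The call held in 2 of 20 alternative settings for Grik1, 8 for Sox5, 12 for Sema5a and 17 or 18 for the other 4. In OPCs the log2 change of Vcan was 0.00 and of Sox5 0.05, while in microglia it was −3.43 and 1.43. Microglia of cortex and striatum held 17 and 74 UMIs of Vcan in all, 48 and 147 of Cacng4, and 247 and 393 of Kcnk2, and the log2 changes of Cacng4 and Kcnk2 in OPCs were 0.37 and −0.09. Gabbr2 had more microglial UMIs, 627 and 59, and a log2 change of 0.55 in OPCs. These differences thus lay mostly on the microglial side. So did those of cycle genes: Ccnb1, Aurkb and Ube2c were called, with 4 and 49, 0 and 16, and 9 and 144 UMIs in microglia.

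Stage of training was tested within each region, 2 pools against 2 with 2 residual degrees of freedom, and the 3 comparisons of a region share pools. In motor cortex, early against control gave 3 calls of 13222 genes (0.0227%), late against control 2 (0.0151%) and late against early 1 (0.00756%), where 974, 921 and 277 genes had an unadjusted p under 0.05. Slc17a7, the vesicular glutamate transporter of cortical neurons, was at 61.4 and 68.3 CPM in early and 237 and 216 CPM in control OPCs (log2 change −1.63, adjusted p = 0.00836), a call lost without control replicate 2 (−1.27, adjusted p = 0.206). Microglia of the same pools averaged 96.9 and 213 CPM of it. Nrgn, a calmodulin-binding protein of excitatory neurons, was at 569 and 267 CPM in late and 1458 and 992 CPM in control OPCs (log2 change −1.64, adjusted p = 0.0182), and neurons held 4169 and 5752 CPM. Its call was lost without marked doublets (−1.07, adjusted p = 0.302) and without late replicate 2 (−1.43, adjusted p = 0.102). Hbb-bt, a globin, was at 151 and 90.1 CPM in early and 2.63 and 5.65 CPM in control OPCs. Vip, an interneuron peptide, and Lars2, a mitochondrial tRNA synthetase, were called with overlapping pools. None of the 6 calls was an OPC gene of the lists: across the 13 lists of OPC function, cell cycle and stress, 0 genes were called in any cortical stage comparison, which at these shares of called genes says nothing particular of the lists. Leaving out 1 pool moved these counts, from 7 to 179 for early against control and from 6 to 138 for late against control, in both cases highest without motor cortex control replicate 1.

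In dorsal striatum, early against control gave 7 calls of 11593 genes (0.0604%), late against control 9 (0.0776%) and late against early 0 (0.0%), with 704, 622 and 656 genes at an unadjusted p under 0.05. DESeq2 made 0 calls in these 3 comparisons. Several calls rest on dorsal striatum control replicate 2. Slc5a7, the choline transporter of cholinergic interneurons, was at 215 CPM there and at 10.1 to 27.6 CPM in the other 5 striatal pools, and its early change of −3.12 became 1.30 without that pool. Slc7a14 reversed likewise (−2.87 to 3.15). Elavl2 was at 154 CPM in that pool and at 13.6 to 43.9 CPM in the others, and mt-Nd3 at 539 CPM. Dorsal striatum control replicate 1, the pool of 1 library, held 10.1 CPM of Slc5a7 and 30.2 CPM of Elavl2. The counts moved to 18 to 202 and to 2 to 150 when 1 pool was left out, and the lower bound of the late comparison was that without control replicate 2.

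Hspa1a, an inducible heat shock chaperone, was the only gene called higher in late than in control striatal OPCs. It was at 235 and 249 CPM in the late pools, 113 and 118 CPM in the early pools and 131 and 99.0 CPM in the control pools. Late against control the log2 change was 1.15 ± 0.19 (SE, adjusted p = 0.0315, edgeR), and leaving out 1 pool at a time gave 0.89 to 1.31. The call was lost without control replicate 2 (0.90, adjusted p = 0.343) or late replicate 2 (0.89, adjusted p = 0.202), and with DESeq2 (adjusted p = 0.696). Microglia of the late and control pools averaged 652 and 711 CPM, above the level in OPCs and without a rise. In the cortical pools it was at 92.1 to 196 CPM and was not called between stages.

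**Figure D5:**
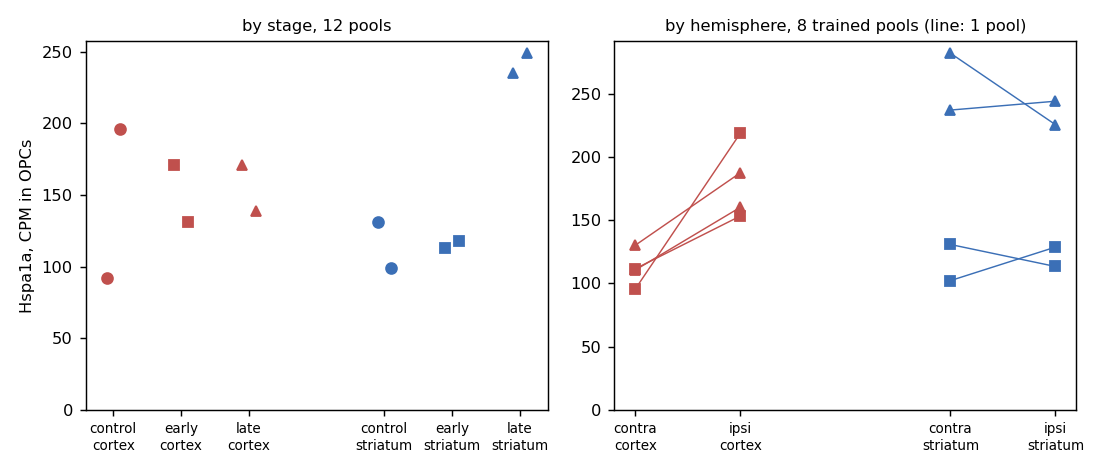
Level of Hspa1a in OPCs, in CPM, by pool for each region and stage (left), and by hemisphere for the 8 trained pools with the points of a pool joined (right); red is motor cortex, blue dorsal striatum, circles control, squares early and triangles late. Late striatal pools (235 and 249 CPM) lie above the other striatal pools, and in each cortical pair the contralateral value is the lower.

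Hemispheres contralateral and ipsilateral to the reaching forelimb were set against each other in the 4 trained pools of each region, with the pool as a block. In motor cortex 8 of 11893 genes (0.0673%) were called, 1 higher and 7 lower contralaterally, with 468 at an unadjusted p under 0.05. Hspa1a was at 95.5, 111.5, 130.1 and 110.5 CPM contralaterally and at 219, 153, 187 and 160 CPM ipsilaterally, in the order early replicates 1 and 2 and late replicates 1 and 2. It was lower on the contralateral side in 4 of 4 pools without overlap (log2 change −0.72 ± 0.11, SE, adjusted p = 0.00521). Its neighbour Hspa1b, a near-identical copy, was also lower in 4 of 4 (−1.19, adjusted p = 0.0433), and reads of such copies can be split between them. Hspa1a lost its call without marked doublets (−0.57, adjusted p = 0.148) and without early replicate 1 (−0.52, adjusted p = 0.411). In striatum, where it was higher contralaterally in 2 of 4 pools, it was not called (0.10 ± 0.14, SE). Mbp, the myelin basic protein, was higher contralaterally in 4 of 4 pools, at 116, 34.2, 161 and 32.5 CPM against 42.7, 25.8, 63.7 and 22.5 CPM (log2 change 1.19 ± 0.15, SE, adjusted p = 6.92e-04). It stayed called without marked doublets (1.29, adjusted p = 2.56e-07) and lost its call without early replicate 1 (1.00, adjusted p = 0.331) or late replicate 1 (1.08, adjusted p = 0.0546). Over all 12 pools Mbp averaged 44.1 CPM in OPCs, against 63.3 CPM in microglia, 63.9 CPM in neurons and 44.9 CPM in astrocytes. Mature oligodendrocytes averaged 9093 CPM. The part of free RNA in the Mbp change was not tested. The other called genes were Ccl4, Tnf, Pf4, Vip and Myl4, of which Ccl4 and Tnf are cytokines of microglia and Pf4 a chemokine of macrophages and platelets.

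In dorsal striatum 3 of 10242 genes (0.0293%) were called between hemispheres, all lower contralaterally: Acta2 of smooth muscle, and Tmem212 and Rarres2 of ependymal cells. Tmem212 was at 0 CPM in all 4 contralateral and 2 of 4 ipsilateral sums. Removing the pool block left 0 calls in both regions, as did DESeq2 with the block. No gene of the OPC lists other than Mbp and the heat shock genes was called between hemispheres in either region. Over all 12 pools, controls and striatum included, Mbp averaged less in OPCs than in microglia or neurons (44.1 against 63.3 and 63.9 CPM). Mbp in those other classes was not compared between hemispheres.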

How the data were processed

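Single-cell libraries were made with the 10x 3' chemistry after papain dissociation and dead-cell removal, per the labels' protocols, which name 2 kit versions without giving each library's. Reads were processed by the authors with Cell Ranger 3.1.0 against GRCm38 (mm10), per the submitters' processing notes; the deposited matrices hold whole UMI counts per gene and cell, and per the file headers came from software version 3.0.2.

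From these counts, cells were filtered and OPCs selected as stated, in Python 3.11.15 with scipy 1.17.1. OPC counts were summed per pool (both hemispheres) and tested with edgeR 4.0.16 (quasi-likelihood test, TMM scaling, filterByExpr, R 4.3.3), with stage and barcode class as terms; hemispheres were tested with pool as block, since both come from the same mice. Pools are numbered within a group in accession order and were not paired across groups. CPM are counts per 1000000 UMIs of a class of cells in a pool or library, with library sizes scaled by TMM. Shares were compared by exact permutation over pools. Doublets were marked per library with Scrublet in scanpy 1.11.5, as the top 0.8% per 1000 barcodes, and kept in the values given unless stated. Other classes were set by UMI rules: microglia by 2 or more UMIs of Cx3cr1, neurons by 3 or more of Snap25, and astrocytes by 2 or more of Aqp4 and Gja1, each with 0 of Pdgfra, Mog and Mag. Microglia and neurons also had 0 of Olig1 and Olig2, and neurons and astrocytes 0 of Cx3cr1. Mature oligodendrocytes had 2 or more UMIs of Mog and Mag together, with 0 of Pdgfra and Cx3cr1. The members, gene lists and tests were chosen with earlier results of these data known. Genes were named when called in both regional models without overlap, when called and a member of a list, or with no overlap between stages or hemispheres; other named genes were chosen after their values were seen. Some genes that met this rule are not reported here. The procedures were tested on simulated counts. DESeq2 1.42.0 and limma 3.58.1 served as alternatives. Barcode classes were called from the rate at which libraries share barcodes. Gene coordinates are those of GRCm38.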

Additional observations from a re-analysis of the deposited data

Results flagged for a closer look

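Among 148 groups of 6 pools, 25 held 1 pool whose gap to the nearest other pool exceeded 0.625 of the group's range. About 1 in 20 groups of independent, normally spread values would pass this cut. The groups here share pools, and some hold mostly values of 0 CPM, so that share is not the one to expect for them. The committed share of dorsal striatum late replicate 1 was 21.4%, against 7.04% to 10.3% in the other striatal pools. Its ipsilateral library was at 33.7% and its contralateral library at 10.5%. The same pool, with the smallest OPC sum, stood apart in Efhd2 (23.8 CPM), Hmgb2 (494 CPM), Ltbp1 (34.0 CPM, the lowest) and Klk8 (0 CPM, the lowest).

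Motor cortex control replicate 1, with the fewest OPCs, was highest of the cortical pools in Id4 (36.9 CPM), Nr2f2 (29.0 CPM), Ccnd2 (147 CPM), Adora2a (7.90 CPM), Drd2 (2.63 CPM) and Gm44644 (31.6 CPM). Motor cortex late replicate 1 was highest in Id3 (60.8 CPM), Pclaf (60.8 CPM), Dut (121 CPM) and Usp51 (89.0 CPM). Six3 and Six3os1 were each at 0.337 CPM in motor cortex early replicate 1 and at 0 CPM in the other cortical pools.

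The globins Hba-a1, Hba-a2 and Hbb-bs reached 1051, 824 and 2684 CPM in motor cortex late replicate 1, and 28.4, 18.1 and 72.3 CPM in dorsal striatum early replicate 1, the highest of each region. Slc5a7 was at 215 CPM in dorsal striatum control replicate 2, and Gm44644 at 46.3 CPM in dorsal striatum control replicate 1.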

How the results depend on the processing

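The regional count of 308 genes was 746 without a filter on low counts, 136 without barcode class as a term, 85 without marked doublets, 184 with at least 3 Pdgfra UMIs, 195 in the 2 flow cells that held both regions, and 230 to 407 with 1 pool left out. Of the 308, 131 were called again in the same direction in those 2 flow cells. Car8, Adamts9, Dio2 and Nr4a2 were not (adjusted p = 0.371, 0.105, 0.0718 and 0.0663, edgeR). The count beyond microglia (171) was 451 without the filter, 31 without doublets, 53 with stricter cell limits, 2174 against astrocytes and 18 against mature oligodendrocytes, and 99 to 199 with 1 pool left out. The causes were not tested.

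Stage counts moved as well. With 1 pool left out, where a lone pool is assumed to vary like the others, they ran from 7 to 179, 6 to 138 and 1 to 32 in motor cortex (early against control, late against control, late against early) and from 18 to 202, 2 to 150 and 2 to 74 in dorsal striatum. In the same order the counts without a filter were 149, 146 and 27, and 104, 105 and 52. DESeq2 gave 13 and 14 in the first 2 cortical comparisons and 0 in striatum, and RLE scaling gave 9 and 6 in those cortical comparisons. Without barcode class all 5 comparisons with calls gave 0. With all 12 pools in 1 fit the cortical counts were 10, 0 and 0, and the striatal counts against control 1 and 1. Without doublets the cortical counts for late OPCs were 1 and 0, and the striatal counts 41, 25 and 2. Without control replicate 2 the striatal early change of CT010467.1, an rRNA, Slc7a14 and Slc5a7 was −4.13, 3.15 and 1.30, with 2.77, −3.31 and −3.39 at the other end of the range. The late change of Slc7a14 and Slc5a7 was 1.76 and 0.49, with −4.33 and −4.03 at the other end. Vip, late against early in cortex, was 0.18 without barcode class.

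Hemisphere pairs come from the same mice, so the pool is a block. With no replicate block 0 genes were called in either region, and DESeq2 called 0. Without a filter 38 were called in cortex and 6 in striatum, and with 1 pool left out 3 to 17 and 1 to 4. Vip was 1.43 in cortex without doublets.

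The regional difference in OPC share was 3.75 to 5.32 percentage points with 1 pool left out, with an adjusted p of 0.0390 without motor cortex control replicate 1. That in committed share was −6.78 with thinned cells. In this paragraph thinned cells had their classes set again. Near 0, directions turned. The hemisphere difference in OPC share was −0.0218 when thinned and −0.448 to 0.524 with 1 pool left out. The difference of trained from control pools in dividing share was −1.20 when thinned, −0.339 with at least 3 Pdgfra UMIs, −0.328 with 2 UMIs of Top2a and Mki67 required, and −0.823 to 1.05 with 1 pool left out. The hemisphere difference in dividing share was 0.210 without doublets, 0.480 with stricter limits, and −1.14 to 0.409.

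Uncalled regional changes that turned sign were those of Matn4 (0.040 without a filter, 0.0094 without barcode class, 0.027 with 3 Pdgfra UMIs, 0.10 with stricter limits, 0.013 with flow cell as a random block, 0.11 in the larger barcode class, −0.089 to 0.16 with 1 pool left out) and Cspg4 (−0.014 with RLE, −0.015 with DESeq2, −0.0094 without doublets, −0.074 to 0.096). Sox10 was −0.16 in the larger barcode class, −0.29 in the 2 flow cells and −0.040 to 0.18. Vcan was −0.018 with RLE, −0.022 with DESeq2, −0.0058 without barcode class, −0.026 without doublets, −0.055 in the larger class, −0.22 in the 2 flow cells and −0.073 to 0.075. Hspa1a was −0.018, −0.038 and −0.012 with RLE, DESeq2 and no barcode class, −0.38 in the 2 flow cells and −0.22 to 0.16. Without doublets Pclaf was 0.033, Top2a 0.42 and Mki67 0.67, which was 0.0062 in the 2 flow cells. Against mature oligodendrocytes Sema5a was 0.043, Grik1 1.85, Cacng4 −0.14 and Egr3 −0.35, and against astrocytes Hes1 was −0.47.

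Depth limits these results: the smallest OPC sum held 278766 UMIs, at which genes of a few CPM rest on single UMIs.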

Other observations

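The woodchuck element (wpre) carried by the reporter allele was also counted in the deposited matrices. A wpre UMI was present in 13.9% of cortical and 16.7% of striatal OPCs, against 7.22% and 7.15% of microglia, 18.9% and 20.0% of neurons, and 26.7% and 31.3% of astrocytes. Depth differs between these classes, and the shares were not thinned. Dividing OPCs held more Ccnd1, a G1 cyclin (878 ± 195 against 637 ± 129 CPM, higher in 11 of 12 pools), and less Fos (1109 ± 615 against 1638 ± 778 CPM, lower in 12 of 12).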
